A study of Caenorhabditis elegans with 2 samples.

Results

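CDC-48 is a ring-shaped ATPase of the AAA family, known as p97 or VCP in mammals, and the 8 genes described here encode it and its ubiquitin cofactors in Caenorhabditis elegans. They are cdc-48.1, cdc-48.2, ufd-1, npl-4.1, npl-4.2, ufd-2, ufd-3 and ubxn-3, chosen by name from 19973 annotated protein-coding genes. For each gene, every summit in the gene body or within 2 kb of an annotated 5′ end was collected from the peak lists, which gave 6 of the 2333 reproducible summits. The set was selected on the signal and rank of calls in these same lists, above all those of the cdc-48.1 summit, known from earlier work on these files. Those values are therefore a description, and no test was made on them.

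The data come from chromatin immunoprecipitation with sequencing (ChIP-seq) of whole worms at the first larval stage (L1), animals of both sexes together, age not given. The strain, OP49, carries the unc119(ed3) mutation and the transgene wgIs49, which holds lin-13 fused to TY1, EGFP and FLAG tags together with a rescuing unc119 copy. The labels name no mutation of the endogenous lin-13 gene, and the whole animal was used, so calls cannot be assigned to a tissue. The 2 biological replicates form 1 group, and control samples were not analysed here. LIN-13, which carries zinc fingers, belongs to the class B synthetic multivulva proteins (synMuv B), known as repressors of vulval fate and of germline genes in the soma.

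CDC-48 pulls ubiquitinated proteins out of complexes, membranes and chromatin, and passes many of them to the proteasome. UFD-1 and NPL-4 form the adaptor that recognises ubiquitin chains. UFD-2 is a ubiquitin ligase that lengthens such chains, UFD-3 is a WD-repeat protein that binds ubiquitin and CDC-48, and UBXN-3, the relative of mammalian FAF1, works with CDC-48 in taking replication proteins off chromatin. The worm has a pair of CDC-48 genes, whose products overlap in function in the embryo.

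Signals below are the authors' score of a call against a control, on a scale not given in the sources used here, and ranks count from the strongest call of a list. The pooled list and each replicate list hold 30000 calls with background included. The reproducible set was the 2333 pooled calls of highest signal, with signals from 48.24 to 871. Read depth is not known. Positions are in the ce11 build, and offsets are negative upstream of a 5′ end.

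Of the 8 genes, 5 had a reproducible summit in the gene body or within 2 kb of a 5′ end. These were cdc-48.1, cdc-48.2, ufd-2, ufd-3 and ubxn-3, and ubxn-3 had 2. Over all protein-coding genes 15.0% had such a summit, and 1.70% had 2 or more. Within 500 bp of a 5′ end the count was 3 of 8 (cdc-48.1, ufd-2 and ufd-3), where 8.63% of all genes had one. None of the 6 summits lay inside a protein-coding gene. The share of all reproducible summits outside gene bodies was not counted, so this cannot be read as a trait of these genes. Chromosome II holds 7 of the 8 genes and 17.3% of all protein-coding genes, and 15.0% of its genes had a reproducible summit in the wider region and 8.50% within 500 bp. The adaptor genes ufd-1, npl-4.1 and npl-4.2 had none.

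Sequences at the 6 summits are shown because they are the reference DNA at the calls collected for these genes, and because the cdc-48 genes can be compared in them. All are on chromosome II and come from the RefSeq copy of WBcel235, the assembly of ce11, written in the direction of the named gene. The cdc-48.1 call is given whole (chrII:10563454-10563689, minus strand). The others run from 100 bp before to 100 bp after the summit, at chrII:8137504-8137704 for cdc-48.2, chrII:8062349-8062549 for ufd-2 and chrII:9940526-9940726 for ufd-3, all on the plus strand. The ubxn-3 windows are chrII:216663-216863 and chrII:221305-221505, on the minus strand. Capitals mark the searched words described after the values, and the word CGCGCT, which was added after the windows had been read.
cdc-48.1: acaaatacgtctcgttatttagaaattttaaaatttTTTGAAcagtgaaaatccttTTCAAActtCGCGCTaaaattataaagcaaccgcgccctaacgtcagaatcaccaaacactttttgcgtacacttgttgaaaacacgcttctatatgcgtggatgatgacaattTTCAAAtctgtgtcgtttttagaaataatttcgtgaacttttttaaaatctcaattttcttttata
cdc-48.2: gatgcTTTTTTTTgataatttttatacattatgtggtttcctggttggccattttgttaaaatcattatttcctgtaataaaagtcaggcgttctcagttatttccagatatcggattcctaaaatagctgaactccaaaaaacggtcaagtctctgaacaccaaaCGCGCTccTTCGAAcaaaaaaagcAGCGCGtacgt
ufd-2: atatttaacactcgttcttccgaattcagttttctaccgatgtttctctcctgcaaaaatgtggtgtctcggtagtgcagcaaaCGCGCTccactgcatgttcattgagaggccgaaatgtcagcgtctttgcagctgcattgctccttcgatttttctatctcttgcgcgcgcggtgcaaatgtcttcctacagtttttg
ufd-3: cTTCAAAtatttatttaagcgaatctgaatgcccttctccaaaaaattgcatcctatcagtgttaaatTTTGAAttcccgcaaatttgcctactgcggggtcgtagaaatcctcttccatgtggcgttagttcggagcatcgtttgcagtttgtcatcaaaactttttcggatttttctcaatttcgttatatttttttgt
ubxn-3, summit past the 3′ end: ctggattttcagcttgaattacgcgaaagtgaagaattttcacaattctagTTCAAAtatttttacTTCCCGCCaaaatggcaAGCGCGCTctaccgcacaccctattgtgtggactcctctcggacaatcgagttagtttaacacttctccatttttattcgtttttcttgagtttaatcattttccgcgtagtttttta
ubxn-3, upstream summit: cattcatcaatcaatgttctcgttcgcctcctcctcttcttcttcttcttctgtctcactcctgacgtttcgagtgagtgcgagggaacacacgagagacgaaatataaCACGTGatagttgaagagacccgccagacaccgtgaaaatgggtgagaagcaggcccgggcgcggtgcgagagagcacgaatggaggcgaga

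The cdc-48.1 summit had rank 1 in replicate 1, rank 3 in replicate 2 and rank 2 in the pooled list. The gene (WBGene00007352, C06A1.1) lies at chrII:10560036-10563407 on the minus strand, with 1 annotated 5′ end, 17 bp before the first codon. The signal was 406 in replicate 1, 401 in replicate 2 and 806 in the pooled list. Summits lay 171 and 177 bp upstream of the 5′ end in the replicates, 6 bp apart, and 177 bp upstream in the pooled list. Among all 1346 reproducible summits within 500 bp of a 5′ end, the quartiles of the offset were -256 and -71 bp. The pooled call was 236 bp wide, where 324 bp is the common width and 128 pooled calls are narrower. The summit lies in the 704 bp between cdc-48.1 and C06A1.6, a gene of the same strand that ends there. The nearest other protein-coding 5′ ends were those of C06A1.6, 1094 bp away, and of the divergent gene C06A1.7, 1307 bp away.

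The promoter peaks most like it were those of tasp-1, rpl-3 and rpl-35. Likeness was the sum of rank differences over the 2 replicate lists, among 1290 promoter peaks matched in both, and came to 3, 3 and 4. The tasp-1 summit ranked 2 and 1 in replicates 1 and 2, that of rpl-3 ranked 3 and 2, and that of rpl-35 ranked 4 and 4. Over 2 samples this orders peaks by strength alone.

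The other cdc-48 gene had a far weaker call, and farther from its start. The gene cdc-48.2 (WBGene00008053, C41C4.8; chrII:8138496-8141230, plus strand, 1 annotated 5′ end) had its reproducible summit 892 bp upstream. Its signal was 32.4 in each replicate and 65.2 in the pooled list. It ranked 1485 in replicate 1, 1854 in replicate 2 and 1549 in the pooled list, so that 33.6% of the reproducible set was weaker. The summit of replicate 1 was at -905 bp and that of replicate 2 at -841 bp, 64 bp apart. Among the matched reproducible peaks of the whole set the median distance between replicate summits was 19 bp.

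**Figure D1:**
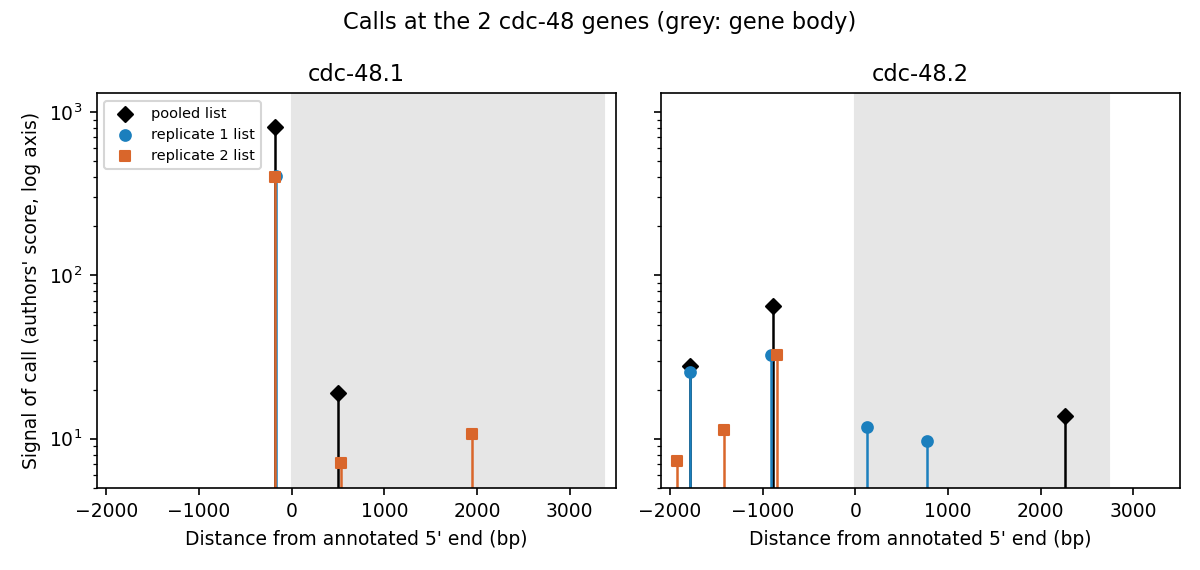
Signal of every call at cdc-48.1 (left) and cdc-48.2 (right) on a log axis, against distance from the annotated 5′ end in bp, with the gene body in grey and symbols for the pooled and replicate lists. The tallest stems stand at -177 bp with 806 (pooled) for cdc-48.1 and at -892 bp with 65.2 for cdc-48.2.

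The score of the strongest cdc-48.1 call was 12.3 times that of the strongest cdc-48.2 call in the pooled list, 12.5 times in replicate 1 and 12.4 times in replicate 2. No test was made, since the pair was chosen with these values known. Ownership of the weaker summit is also less clear. It lies in the 1577 bp between cdc-48.2 and the divergent gene ctns-1, named for the lysosomal cystine transporter cystinosin, and is 686 bp upstream of ctns-1, nearer than to cdc-48.2. With assignment to the closest 5′ end alone, cdc-48.2 had no reproducible summit.

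A second call lay farther upstream of cdc-48.2, in an intron of ctns-1, at -1786 bp with a signal of 25.5 and rank 2171 in replicate 1 (q-value 0.0283). The pooled list held it with 27.9 and rank 5536 (q-value 0.258). In replicate 2 the calls nearest to it had signals of 7.25 and 11.2, with ranks of 25710 and 10109. This was the strongest member call outside the reproducible set, whose weakest call had 48.24, and cdc-48.2 also held the weakest of the 6 summits inside it. Within the cdc-48.1 body, the pooled list held only a call with a signal of 19.0 (rank 14051), 500 bp downstream of the 5′ end and 45 bp from the snoRNA gene C06A1.9. Replicate 1 had no call in the gene body. Replicate 2 had a pair, with 7.11 at 531 bp and 10.7 (rank 11200) at 1944 bp downstream of the 5′ end. Calls in the cdc-48.2 body were also weak, with 11.8 and 9.65 in replicate 1 and 13.9 in the pooled list, each at a different position.

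The coding sequences of the cdc-48 genes, 2427 and 2430 bases long, were identical at 75.5% of 2452 aligned positions. Their 2000 bp upstream gave no alignment by blastn at an E-value of 0.001. Of the 32-base words in the printed windows, 100% occur at a single place in the genome, for these 2 genes and for the other printed windows.

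**Figure D2:**
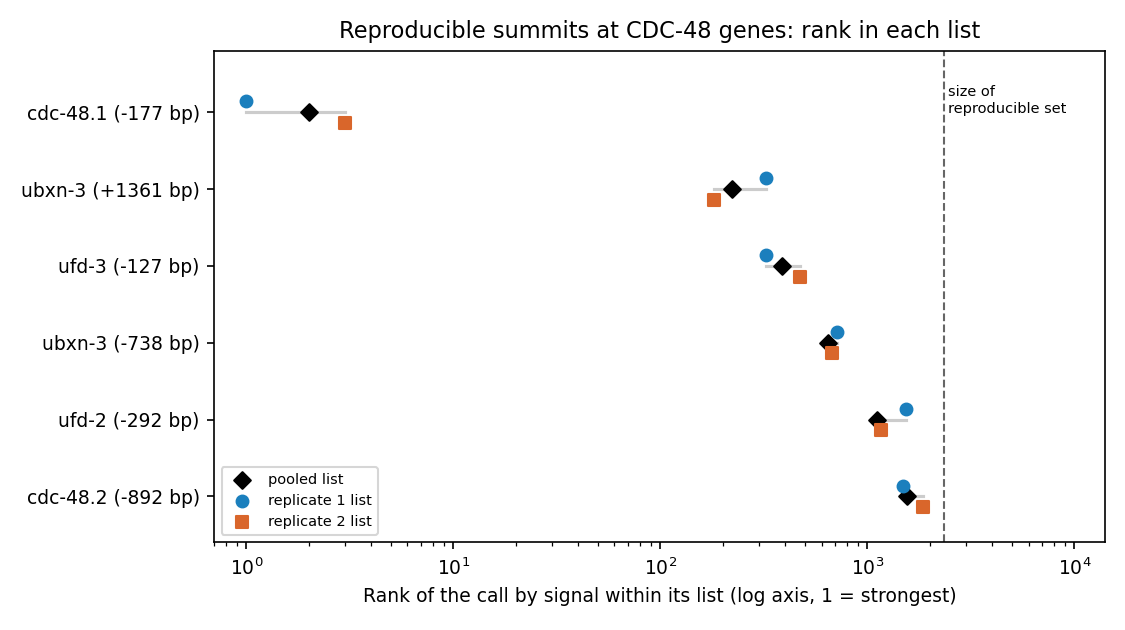
Rank by signal within the pooled and each replicate list (log axis, 1 is the strongest) for the 6 reproducible summits, labelled with gene and offset to the nearest 5′ end of that gene; the dashed line is the size of the reproducible set, 2333. The cdc-48.1 summit stands at ranks 1 to 3 and the others between 181 and 1854, all left of the line in every list.

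All 6 summits had a call within 100 bp in each replicate, as did 93.7% of the reproducible set. Their ranks differed between replicates by 2 to 382 places, where the median over matched peaks was 380.

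The chain-lengthening ligase gene ufd-2 (WBGene00006734, T05H10.5; chrII:8062741-8066193, plus strand) had a summit 292 bp upstream of its 5′ end. Signals were 31.6 in replicate 1, 44.3 in replicate 2 and 82.0 in the pooled list, with ranks of 1543, 1161 and 1107. The summit lies in the 987 bp that separate ufd-2 from T05H10.8, upstream on the same strand, and no other protein-coding gene has a 5′ end within 2 kb of it. A weak call in a ufd-2 exon, 2075 bp downstream of a 5′ end with a pooled signal of 17.0, recurred in replicate 1 with 10.7 and was not called in replicate 2.

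The ubiquitin-binding gene ufd-3 (WBGene00007333, C05C10.6; chrII:9940753-9944107, plus strand) had a summit 127 bp upstream. The signal was 77.9 in replicate 1, 75.7 in replicate 2 and 152 in the pooled list, and the ranks were 324, 474 and 385. Both replicate summits fell at the same base. The interval is short, 320 bp between the end of C05C10.5 on the same strand and the start of ufd-3, and the nearest other 5′ end that faces away, that of C05C10.7, is 1655 bp off.

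The UBX-domain gene ubxn-3 (WBGene00018586, F48A11.5; chrII:217049-220667, minus strand, 4 annotated 5′ ends) had a reproducible summit on either side. The upstream one, 738 bp before the nearest 5′ end, had signals of 50.5 and 62.7 in replicates 1 and 2 and 115.4 in the pooled list (ranks 714, 676 and 647). No other protein-coding 5′ end lay within 2 kb of it. The stronger one had signals of 78.4, 120.1 and 200.5 in the same order, with ranks of 322, 181 and 221. It lies 286 bp past the 3′ end of ubxn-3 and 142 bp upstream of F48A11.4, the next gene on the same strand. It was collected only because an internal 5′ end of ubxn-3 lies 1361 bp away, and by distance it belongs to the promoter of F48A11.4.

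**Figure D3:**
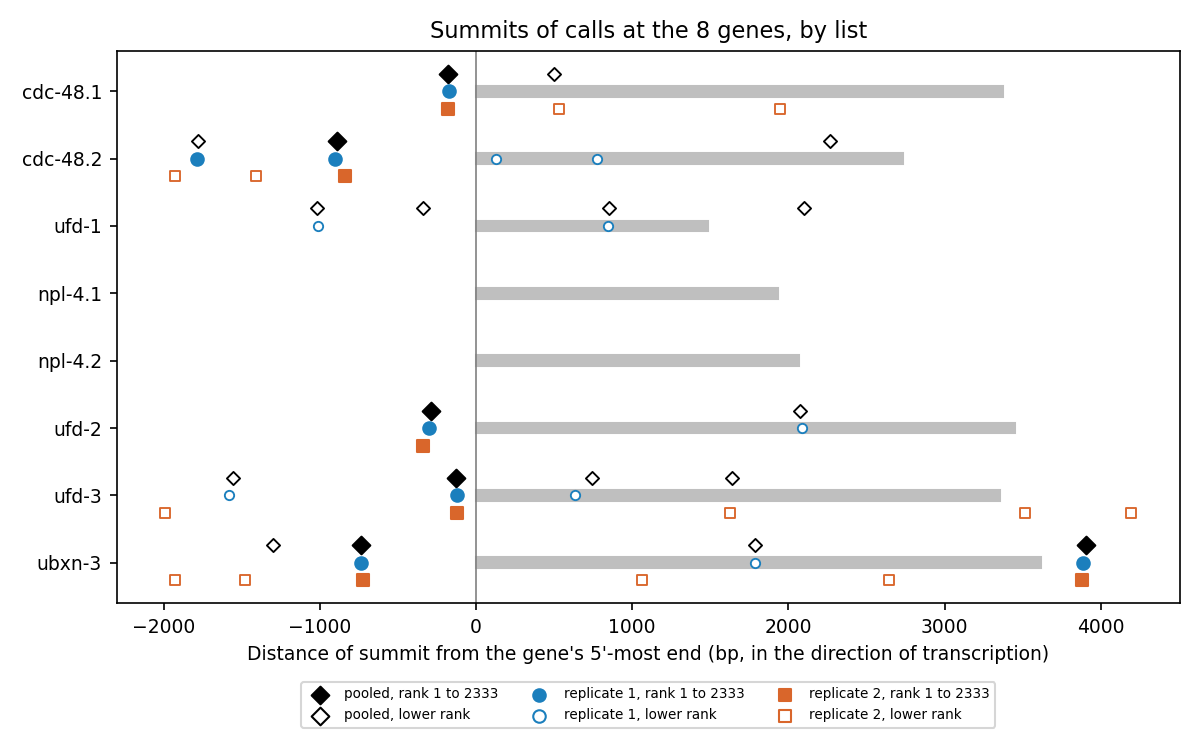
Summit positions of all calls at the 8 genes in the pooled list (diamonds), replicate 1 (circles) and replicate 2 (squares), as distance in bp from the 5′-most end in the direction of transcription, with gene bodies as grey bars; filled symbols rank within the top 2333 of their list. Filled symbols of the 3 lists line up at 6 places, all outside gene bodies, and npl-4.1 and npl-4.2 have no symbol. Another filled circle, at -1786 bp of cdc-48.2 in an intron of ctns-1, belongs to replicate 1 alone (rank 2171).

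Beyond these, calls at the 8 genes were weak. The pooled list held 19 calls at 6 of the genes. All but the 6 reproducible summits ranked below 2333, which the definition of the reproducible set fixes. These 13 had signals from 13.9 to 27.9. Replicate 1 held 15 calls, of which 8 ranked below 2333 with signals of 9.65 to 15.2. Replicate 2 held 18 calls, of which 12 did so with 6.66 to 13.4. Median signals of the whole lists were 18.6 (pooled), 11.8 (replicate 1) and 9.44 (replicate 2), each inside these ranges. A q-value under 0.05 was reached by 6 pooled calls, 7 of replicate 1 and 6 of replicate 2. Over the 30000 calls of each whole list it was reached by 3468 pooled calls, 2475 of replicate 1 and 5192 of replicate 2.

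The adaptor gene ufd-1 (WBGene00006733, F19B6.2; chrIV:12329408-12330890, minus strand) is the only gene of the 8 outside chromosome II. Its 4 pooled calls had signals of 14.2 to 21.5, and the strongest, in an exon 733 bp downstream of a 5′ end, ranked 10190 with a q-value of 0.605. Replicate 1 had 14.1 at that place and 15.2 in an exon of F19B6.1. Replicate 2 had no call, and its nearest calls lay 3269 bp upstream and 20339 bp downstream of the gene. The gene starts 85 bp after the end of F19B6.1 on the same strand, so that little space separates them. Any pooled call within the collected region was found for 6 of the 8 genes and for 71.5% of all protein-coding genes. Within 500 bp of a 5′ end it was found for 4 of 8, ufd-1 among them, and for 39.3% of all.

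The partner genes npl-4.1 (WBGene00019120, F59E12.4; chrII:5631351-5633284, plus strand) and npl-4.2 (WBGene00019121, F59E12.5; chrII:5622889-5624959, plus strand) had no call within the collected region in the pooled list or in either replicate. Just outside it, weak calls lay past the 3′ end of npl-4.1, at 335 bp in the pooled list (14.7) and 346 bp in replicate 1 (8.77). The nearest pooled call to npl-4.2 lay 2368 bp upstream of the gene. Of all protein-coding genes, 13.3% had none in the 3 lists. The pair are near-identical copies. Their coding sequences of 1587 bases differed at 8 positions, and the 1325 bp directly upstream of their starts were 100% identical. Of the 32-base words in their collected regions, 24.5% (npl-4.1) and 25.0% (npl-4.2) occur at a single place in the genome, against 98.6% to 100% for ufd-1, ufd-2, ufd-3, ubxn-3 and cdc-48.2, and 90.2% for cdc-48.1, where the 2 kb upstream had 73.8%. In their gene bodies the shares were 13.5% and 15.6%. Only 1.22% of protein-coding genes had a lower share than npl-4.1. Among the 477 genes with a share under 50%, 84.1% had no pooled call, against 21.0% of the 9687 genes with a share of 99% or more. Read length and the treatment of reads with several matches are not stated for these lists, and their part in the missing calls was not tested.

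**Figure D4:**
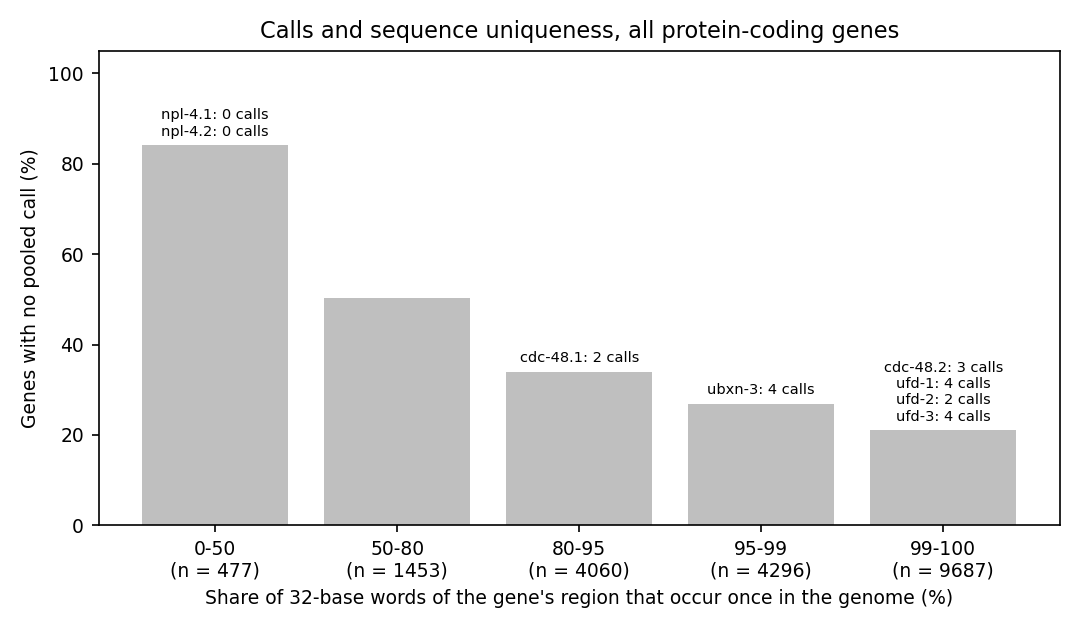
Share of protein-coding genes with no pooled call (bars, percent, from 0) by the share of 32-base words of the gene's region found at a single place in the genome (classes in percent, n genes each), with the 8 genes named above their class. The bars fall from 84.1% to 21.0%, and npl-4.1 and npl-4.2 stand in the first class.

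Short words were searched on both strands within 100 bp of each summit, among them sites of E2F, a partner of synMuv B proteins in the DREAM complex. The E2F-like words were TTCCCGCC, TTTCCCGC, TTCGCGCC, TTGGCGCC and TTCCCGCG, where TTTCCCGC can overlap TTCCCGCC or TTCCCGCG. Any of them stood in 6.77% of all reproducible windows of this width, and in 2.59% of windows centred 150 bp upstream of protein-coding 5′ ends. Of the 6 windows, 1 held an E2F-like word, TTCCCGCC at chrII:216790-216797, in the window between ubxn-3 and F48A11.4. The words TTTGAA or TTCGAA of the cell cycle homology region stood in 4 of 6 windows, where 45.2% of reproducible and 55.1% of promoter windows held them. The GC-box CCGCCC was in none (9.39% and 5.82%). The T-tract TTTTTTTT was in that of cdc-48.2 (14.3% and 25.3%). The E-box CACGTG was in the upstream window of ubxn-3, 11 bp from its summit (9.17% and 4.03%). A match describes letters and not a bound site. Content of G and C was 30.9% in the cdc-48.1 call, the lowest of the 6, and 52.7% in the upstream ubxn-3 window, the highest, around a median of 42.8% in all reproducible windows.

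Other genes of the system were read from fixed lists, chosen with earlier results of these data known. Of 7 further CDC-48 adaptor genes, 4 had a reproducible summit in the gene body or within 2 kb of a 5′ end, and 2 had one within 500 bp, against the 15.0% and 8.63% of all genes given above. The latter were ubxn-2, the relative of mammalian p47, with a pooled signal of 132 at -184 bp, and ubxn-1 with 48.4 at -250 bp, a summit nearer to tipn-1. Of 15 genes of ER-associated degradation and ubiquitin handling, 5 had a summit in the wider region and 4 within 500 bp. These were the ubiquitin gene ubq-2 with 179 (nearer to frg-1), the conjugating enzyme genes ubc-7 with 117 and ubc-6 with 84.5 (the latter shared with aka-1), and the polyubiquitin gene ubq-1 with 93.1. The remaining gene with a summit in the wider region was ubql-1, named after its value was seen. Its pooled signal was 281 at -514 bp, above those given for the 4 genes. That summit lay nearer to ubql-1 than to the 5′ end of pdi-3. The ligase gene sel-11 and the derlin genes cup-2 and der-2 had no reproducible summit. Of 14 genes of other AAA ATPases, 9 had a summit in the wider region and 6 within 500 bp. The strongest within 500 bp were at vps-4, of the ESCRT pathway, with 224, the mitochondrial atad-3 with 194, the microtubule-severing spas-1 with 170 and the membrane fusion ATPase nsf-1 with 99.5. Farther from their 5′ ends, and named after their values were seen, prx-1 had 295 at -1222 bp and bcs-1 had 174 at -1555 bp, both nearer to other genes. None of the summits within 500 bp of genes in these lists reached the signal of cdc-48.1, which was chosen with its pooled rank of 2 known. That outcome was set by the selection and is no result about these lists.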

How the data were processed

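Peak lists in narrowPeak layout were analysed, not reads. Per the deposited file descriptions, 1 list was called on each replicate against a control, 1 on the pooled replicates, and the optimal IDR (irreproducible discovery rate) set was derived from these 3. The sources used here do not give the caller, the aligner, their versions or the IDR threshold. The deposited signal (column 7) is the authors' score per call, ranked within a list. The lists as deposited also hold a −log10 q-value, converted here to a q-value to count calls under 0.05. The ce10 lists were not used.

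Genes and 5′ ends came from Ensembl release 115 (WBcel235), and sequence from RefSeq. Every call lay inside the RefSeq chromosomes. Replicate calls were matched by nearest summit within 100 bp. Words of 32 bases were counted over the genome on both strands. Python 3.11.15, pandas 2.3.3, Biopython 1.88 and blastn 2.17.0 were used, and window counts and word counts were tested on simulated data. Protein sequences were not used here, so paralogs were compared by coding sequence.

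No test between groups exists with 1 group of 2 replicates. The members and lists were chosen with earlier results of these data known. Named were the 8 genes, the genes sharing their summits, and the 3 peaks most like that of cdc-48.1. Up to 4 genes per gene list, with the strongest summits within 500 bp, were also named. Outside this rule and after their values were seen, sel-11, cup-2, der-2, prx-1, bcs-1, ubql-1 and neighbouring genes were named.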

Additional observations from a re-analysis of the deposited data

How the results depend on the processing

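The count of genes with a reproducible summit, 5 of 8 in the gene body or within 2 kb, was 3 with 500 bp and no gene body. It was 4 when summits went to the closest gene alone or when the stronger 50% of the set was used, and 6 with any pooled call. The count within 500 bp, 3 of 8, was 5 at 1000 bp and 2 at 250 bp, and 4 with any pooled call. The remaining alternatives left both counts as they were, including the top 2333 calls of either replicate alone, which gave 5 and 3. With the sequence within 50 bp of the summit, 4 of 6 windows held a word of the 5 motifs searched, CGCGCT not counted. Within 100 bp 5 of 6 did. The share of all windows with any of the 5 motifs was not computed. The words TTTGAA or TTCGAA alone stood in 24.1% of reproducible windows within 50 bp and in 45.2% within 100 bp. The rank of the strongest cdc-48.2 call minus that of cdc-48.1 was 1547, and ranged from 1484 to 1851 when either replicate was left out, a choice made after seeing the data. Of 15 recomputed ranks of single genes, 10 moved by no more than 1 SD of the 2 replicate values. The other 5 included 2 of ufd-1, which had no call in replicate 2 and so no SD. No paired analysis was possible because the study has 1 group. Read depth is unknown, so the lack of a call does not show the lack of binding.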

Other observations

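The word CGCGCT, noticed on reading the 6 printed windows, stood on either strand in 4 of them. The windows were those of cdc-48.1, cdc-48.2, ufd-2 and the ubxn-3 summit past the 3′ end. It was found in 14.7% of all reproducible windows and in 3.81% of windows of the same width 150 bp upstream of 5′ ends. Its centre lay 13 bp from the summit at ufd-2 and 38 bp at cdc-48.1. At ubxn-3 it was read on each strand, 13 and 15 bp from the summit. Those matches overlap (chrII:216773-216778 and chrII:216775-216780) and form a single stretch. At cdc-48.2 it occurred on each strand at separate places, 69 and 93 bp from the summit. Within 50 bp of the summit it was in 3 of 6, against 10.7% of reproducible and 1.97% of upstream windows. It shares letters with the E2F-like word TTCGCGCC, which none of the 6 windows held. Since the word was picked from these sequences, its count was not tested.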
